A study of Mus musculus with 3 samples.

Results

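Drug-metabolising enzyme families were read on bead arrays in Lewis lung carcinoma cells before and after selection for growth in bone. The members are the genes whose symbol on the array puts them in cytochrome P450 families Cyp1 to Cyp4, the aldehyde dehydrogenases (Aldh), the aldo-keto reductases Akr1 and Akr7, the carboxylesterases (Ces), the cytosolic and microsomal glutathione S-transferases (Gsta, Gstm, Gstp, Gstt, Gsto and Mgst), the UDP-glucuronosyltransferases Ugt1a and Ugt2, or the sulfotransferases (Sult). Every gene of these families with a named probe is a member. They are 177 genes in 17 families, with 276 probes, of 19057 genes and 34885 probes that carry 1 gene name. Where a gene had several probes, the one with the highest mean on the log2 scale stood for it.

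These enzymes work in sequence. The phase I families (Cyp, Aldh, Akr and Ces) oxidise, reduce or hydrolyse drugs, hormones, lipids and aldehydes, and the phase II families (Gst, Mgst, Ugt and Sult) attach glutathione, glucuronic acid or sulfate to the products so that transporters can carry them out of the cell. Liver, gut and the club cells of the airway are known for high levels of many P450 enzymes and glucuronosyltransferases, while some aldehyde dehydrogenases and glutathione S-transferases are made in most cells. Many of the genes lie in clusters of close relatives, and the Ugt1a genes form a single locus in which each gene joins a starting exon of its own to a common set of later exons.

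LLC/luc is a lung carcinoma line of C57BL/6 mice that carries luciferase. The parental culture, labelled LLC/luc P, was compared with LLC/luc BM1st (BM 1st), cultured from a bone lesion after injection of LLC/luc into the heart, and with LLC/luc BM2nd (BM 2nd), cultured from a bone lesion after BM 1st cells had been injected in the same way. The labels give all 3 lines, the parental one included, the cell type of osteotropic carcinoma cells, and the titles and subtypes tell them apart. All were grown in the same medium, and the labels name no drug. Each line is 1 culture on 1 array, with no replicate. No p-value can therefore be given, and a difference between lines cannot be told apart from one between cultures or arrays. Values are linear intensities that still contain the background, and where 3 of them follow a gene they stand in the order parental, BM 1st, BM 2nd. The background level, the 95th percentile of 1504 probes for olfactory and vomeronasal receptors, was 109 for parental cells, 110 for BM 1st and 107 for BM 2nd. A gene was called higher or lower when its log2 ratio was past 1 or -1, a fold of 2, and either array of the pair put it above background. The robust SD of the log2 ratio, over all genes above background on either array of a pair, lay between 0.30 and 0.33 in the 3 comparisons. No receptor probe passed 1, but these probes lie at background and do not show the spread of brighter genes.

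The cells expressed a minority of these genes. Some array put 60 of the 177 members above background (33.9%), against 57.4% of all genes, and for 36 all 3 arrays did. Parental cells had 45 of them, BM 1st 44 and BM 2nd 51. Over all genes the counts ranked the lines alike, with 9661 in parental cells, 9549 in BM 1st and 10019 in BM 2nd. The other 117 members had intensities between 73.2 and 109, for which no change in either direction can be read. The families differed widely. Of the glutathione S-transferases, cytosolic and microsomal, 18 of 23 were above background on some array, and of the Aldh genes 10 of 18, but of the P450 genes only 15 of 70, of the carboxylesterases 3 of 17, of the sulfotransferases 4 of 16 and of the Ugt2 genes 1 of 10. The hepatocyte markers, 5 with a probe and Alb among them, and both club cell markers with a probe, Scgb1a1 among them, were above background on no array.

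**Figure D1:**
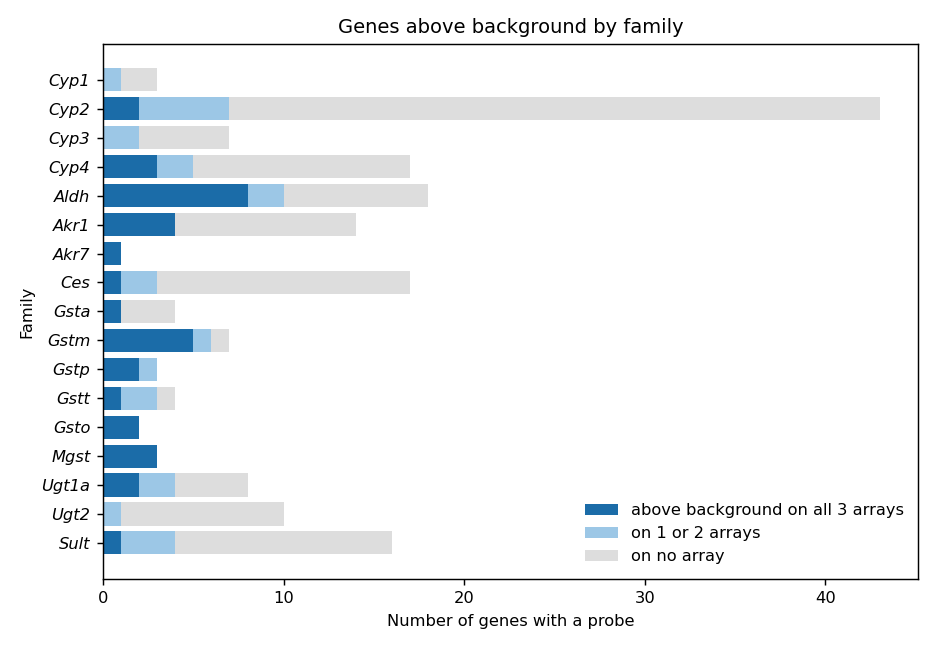
Horizontal bars give the number of member genes with a probe in each family (x axis, genes), divided into those above background on all 3 arrays, on 1 or 2 arrays and on no array. All 3 Mgst genes but 5 of 70 P450 genes were above background on all 3 arrays.

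Conjugating enzymes made up most of the members that were higher after bone selection. They were 23 of the 51 members compared between BM 1st and parental cells, and 27 of the 58 between BM 2nd and parental cells. Between BM 1st and parental cells 4 of 51 members above background on either array were higher and 0 lower, where 2.04% of all genes were called higher and 1.79% lower. The 4 were Ugt1a10, Ugt1a7c, Gstm1 and Gsta4. Between BM 2nd and parental cells 7 of 58 were higher and 0 lower, against 1.83% and 1.53% of all genes. These were Ugt1a10, Ugt1a7c, Ugt1a6a, Ugt1a6b, Mgst2, Mgst3 and Aldh3b1. The Ugt1a genes share sequence and cannot be counted as separate genes, and without that locus 2 of 47 and 3 of 54 members were higher. Both comparisons use the same parental array. Between BM 2nd and BM 1st cells 3 of 55 members were higher (Aldh3b1, Mgst3 and Gstt3) and 2 lower (Aldh18a1 and Gsta4), against 3.01% and 1.78% of all genes. Where both arrays had to be above background, the counts were 4 higher of 38, 5 higher of 38, and 3 higher and 2 lower of 40. All genes then gave 2.09% higher and 2.06% lower for BM 1st against parental, 1.77% and 1.7% for BM 2nd against parental, and 3.32% and 2.05% for BM 2nd against BM 1st. The median log2 ratio over all 177 members was 0.01, 0.02 and -0.00 in the 3 comparisons, against -0.00, -0.00 and -0.01 over all genes. Of these members 117 were above background on no array, which holds their median near 0. Among members above background on both arrays of a pair it was 0.09, 0.19 and 0.13, against -0.00, -0.00 and -0.03 over all genes. Without the Ugt1a locus it was 0.05, 0.19 and 0.12.

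**Figure D2:**
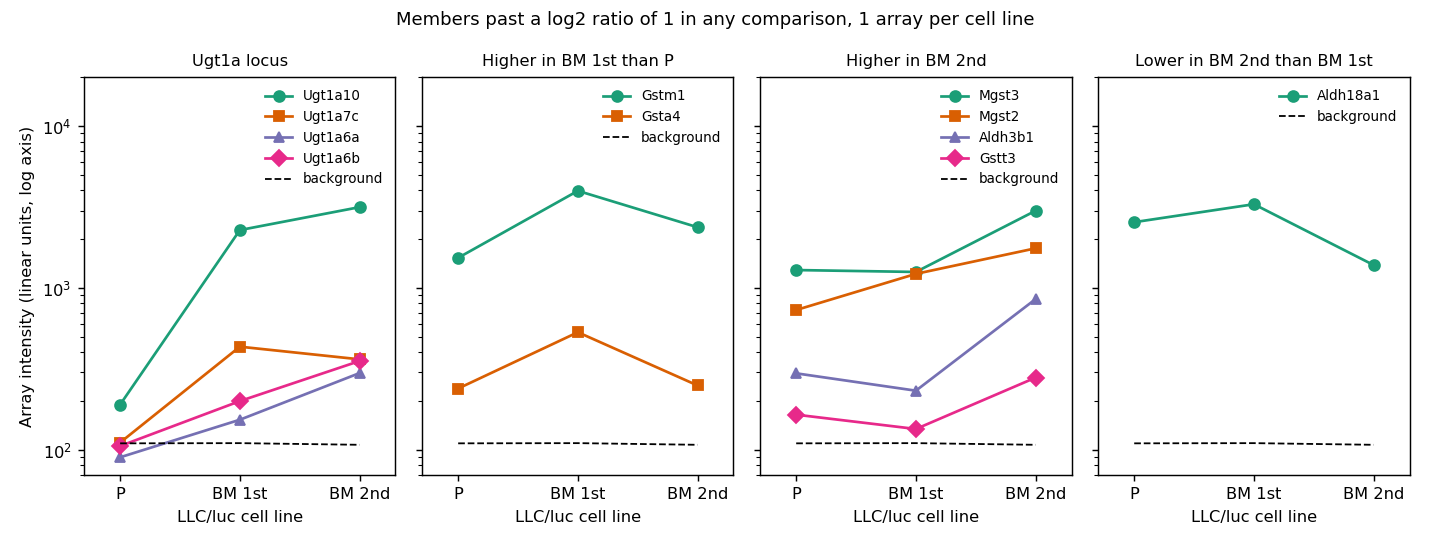
Array intensity (y axis, linear units on a log axis) in LLC/luc P, BM 1st and BM 2nd cells (x axis) for the 11 members past a log2 ratio of 1 in any comparison, 1 array per line, with lines joining the values of a gene and a dashed line at background. Ugt1a10 stands at 190, 2272 and 3148, and Gsta4 and Gstm1 peak in BM 1st cells.

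The Ugt1a locus held the largest ratios to parental cells of all 17 families. UGT1A enzymes glucuronidate bilirubin, phenols, steroids and many drugs. Ugt1a10 had an intensity of 190 in parental cells, against 2272 for BM 1st and 3148 for BM 2nd. Both BM lines were higher, BM 1st 12.0-fold and BM 2nd 16.6-fold, place 7 of 10377 and place 6 of 10579 genes ordered from the highest ratio. The study lists Ugt1a10 from these same arrays, so its rank here is a description and no independent evidence. BM 2nd over BM 1st gave a log2 ratio of 0.47, under the threshold. Ugt1a7c, barely over background in parental cells, was 111, 433 and 362 in the same order of lines, with log2 ratios of 1.97 and 1.71 to parental. The retained background weighs on these ratios: with it subtracted the log2 ratios of BM 1st and BM 2nd to parental were 4.49 and 4.98 for Ugt1a10, and 4.25 and 3.91 for Ugt1a7c, whose parental value was then close to the floor set for dim signals. Ugt1a6b was 105, 200 and 353, and Ugt1a6a was 89.8, 153 and 297. Both were below background in parental cells, so their ratios are bounds. Against parental cells, Ugt1a6b was at least 3.22-fold and Ugt1a6a at least 2.72-fold higher in BM 2nd. The bounds for BM 1st, at least 1.82-fold and 1.40-fold, were under the threshold. The other Ugt1a6a probes gave bounds for BM 2nd of at least 1.39-fold and 1.496-fold, also under the threshold. The other Ugt1a7c probe, below background in parental cells, read 95.4, 129 and 147. Its bounds, at least 1.18-fold for BM 1st and 1.35-fold for BM 2nd, did not pass either, and BM 2nd was above BM 1st, unlike for the brighter probe. Ugt1a1, Ugt1a2, Ugt1a5 and Ugt1a9 were above background on no array, with intensities of 89.3 to 104.

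The order of the lines was not the same for all Ugt1a probes. The array holds 19 of them, of which 3 were above background in parental cells and 9 in each BM line. The 3 had log2 ratios to parental of 1.97 to 3.61 for BM 1st and of 1.71 to 4.05 for BM 2nd. For the other 6 only bounds can be given, of at least 1.10-fold to at least 9.67-fold for BM 1st and of at least 1.35-fold to at least 11.1-fold for BM 2nd. With these bounds 4 of the 9 passed the threshold for BM 1st and 6 for BM 2nd. Of the 6 probes named Ugt1a10, 2 gave log2 BM 2nd/P of 4.05 and 4.02, another, dim in the parental line, was higher by at least 11.1-fold, and the remaining 3 stayed below background on every array. From BM 1st to BM 2nd 8 of the 9 probes had a positive log2 ratio, and the brightest Ugt1a7c probe had one of -0.26. All 8 genes overlap on the RefSeq annotation of assembly GRCm38.p6 and 7 of them share an end, so a probe in the common exons reads several of them. Which exon each probe reads was not analysed here, and the named gene may not be the one transcribed.

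**Figure D3:**
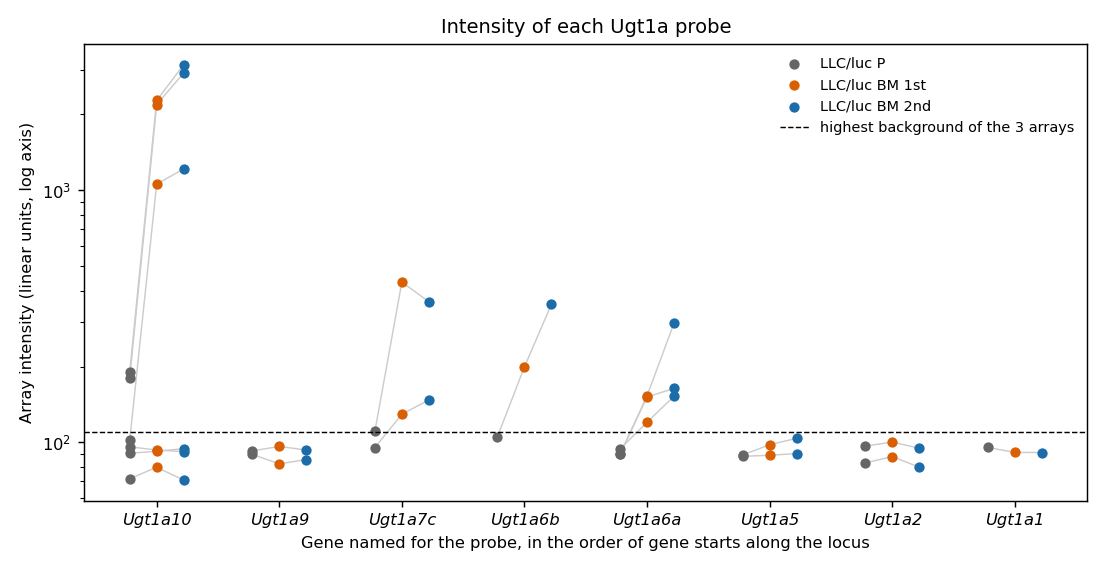
Intensity of each of the 19 Ugt1a probes (y axis, linear units on a log axis) by the gene named for it (x axis, in the order of gene starts along the locus), with the 3 lines side by side and grey lines joining a probe. Of the Ugt1a10 probes 3 lie between 102 and 190 in parental cells and between 1058 and 2272 in BM 1st cells, and the probes of Ugt1a9, Ugt1a5, Ugt1a2 and Ugt1a1 stay below the dashed background line.

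Because each Ugt1a gene has a start of its own, the 250 bases before the start are shown for the 3 genes of the locus that were called and have an entry in the RefSeq promoter table of GRCm38.p6, beside Mgst3 as a called gene of another family. They are Ugt1a10 (chr1:88055161-88055410, plus strand), Ugt1a7c (chr1:88094751-88095000, plus strand), Ugt1a6a (chr1:88134559-88134808, plus strand) and Mgst3 (chr1:167393842-167394091, minus strand), each written 5′ to 3′ on the strand of its gene. Capitals mark the core of the xenobiotic response element, GCGTG, searched on both strands.
Ugt1a10: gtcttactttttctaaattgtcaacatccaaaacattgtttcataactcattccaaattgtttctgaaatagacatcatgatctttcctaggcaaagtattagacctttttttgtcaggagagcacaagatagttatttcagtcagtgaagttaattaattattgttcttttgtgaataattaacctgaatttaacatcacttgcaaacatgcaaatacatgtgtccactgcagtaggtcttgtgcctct
Ugt1a7c: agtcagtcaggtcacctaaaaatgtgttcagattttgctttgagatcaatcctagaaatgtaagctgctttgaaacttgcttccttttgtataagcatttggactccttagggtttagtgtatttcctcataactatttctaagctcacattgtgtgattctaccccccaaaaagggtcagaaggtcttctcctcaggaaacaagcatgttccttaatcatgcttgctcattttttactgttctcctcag
Ugt1a6a: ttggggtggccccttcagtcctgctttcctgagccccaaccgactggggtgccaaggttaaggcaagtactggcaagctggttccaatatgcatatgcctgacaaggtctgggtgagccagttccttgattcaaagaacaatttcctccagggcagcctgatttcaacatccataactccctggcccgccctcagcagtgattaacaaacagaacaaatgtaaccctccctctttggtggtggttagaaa
Mgst3: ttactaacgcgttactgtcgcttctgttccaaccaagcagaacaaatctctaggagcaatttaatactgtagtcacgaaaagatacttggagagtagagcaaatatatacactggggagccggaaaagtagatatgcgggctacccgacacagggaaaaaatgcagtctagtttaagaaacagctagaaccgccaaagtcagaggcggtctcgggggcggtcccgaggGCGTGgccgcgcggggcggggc

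The 3 Ugt1a stretches are unlike each other, with longest shared runs of 8 to 10 bases. The core of the antioxidant response element, TGACNNNGC, the site read by the NRF2 factor, was in none of the called members' stretches and in 9 of the 144 members with an entry, where 10.2% of all 32851 stretches held it. GCGTG, the core read by the aryl hydrocarbon receptor, was in 27 of the 144, against 28.2% of all. Among called members it was in Mgst3, Gstm1 and Aldh18a1, and in none of the 3 Ugt1a stretches. Gsta4 and Ugt1a6b had no entry. No match says only that these letters are not in this window.

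Of the 18 expressed glutathione S-transferases 5 were called in any comparison: Gstm1 and Gsta4 higher in BM 1st than in parental, Mgst2 and Mgst3 higher in BM 2nd than in parental, and Gstt3 between the BM lines. Glutathione S-transferases join glutathione to reactive compounds. By comparison, 2 of 16 were higher in BM 1st than in parental and 2 of 18 in BM 2nd than in parental, against 2.04% and 1.83% of all genes. Between the BM lines 2 of 18 were higher and 1 lower, against 3.01% and 1.78%. Gstm1, of the mu class, was 1532 in parental cells, 3971 in BM 1st and 2365 in BM 2nd. BM 1st was 2.59-fold above parental (log2 1.37), and BM 2nd 1.54-fold, under the threshold. A dim Gstm1 probe read 100, 154 and 111, and with both probes averaged the log2 ratio of BM 1st to parental was 0.99, no longer past 1. Gsta4, an alpha-class enzyme that conjugates the lipid peroxidation product 4-hydroxynonenal, was 239 in parental cells, 531 in BM 1st and 249 in BM 2nd. BM 1st was thus 2.23-fold above parental and 2.13-fold above BM 2nd, and BM 2nd over parental gave a log2 ratio of 0.06.

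By the brightest probe of each gene, the microsomal enzymes were highest in BM 2nd cells. Mgst2 and Mgst3 are membrane proteins of the family that also makes leukotriene C4, and reduce lipid hydroperoxides. Mgst3 was 1287 in parental cells, 1253 in BM 1st and 2991 in BM 2nd, 2.32-fold above parental. Its other probe gave a log2 of 1.17 beside 1.22. Mgst2 was 729, 1219 and 1754, with log2 ratios to parental of 0.74 for BM 1st and 1.27 for BM 2nd. Mgst1 was near background, at 115, 128 and 138. The other Mgst1 probe read 100, 124 and 117, highest in BM 1st cells. By the brightest probe all 3 Mgst genes had a higher intensity in BM 2nd than in either other line.

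The other cytosolic glutathione S-transferases did not pass 1 against parental cells. Gstt3, of the theta class, was 165 in parental cells, 134 in BM 1st and 279 in BM 2nd, and passed only between the BM lines, 2.08-fold. Its other probe, below background on all arrays, gave a log2 of -0.13 there. Gstm2 was 3815, 2946 and 5863, with a log2 of 0.99 between BM 2nd and BM 1st cells, just under the threshold, and its 3 probes gave 0.62 to 0.70 for BM 2nd over parental cells. Of the 6 Gstm genes above background, Gstm1 was highest in BM 1st cells, Gstm6 was 148 in both BM lines, and the other 4 were highest in BM 2nd cells. Gstm5 was 570, 430 and 653, and Gstm7 100, 103 and 164. Gstp1, the pi-class enzyme, was 11570, 14580 and 14512, and Gsto1, an omega-class enzyme that also reduces dehydroascorbate, was 11713, 8544 and 8567. Gstp2 lay above background only in BM 2nd cells, at 106, 105 and 191, at least 1.75-fold higher than in parental cells. With background subtracted more of these dim genes passed against parental cells, Gstm6 and Gstt1 higher in BM 1st, and Gstm6, Gstm7, Gstp2, Gstt3 and Mgst1 higher and Gstt2 lower in BM 2nd. Probes in such clusters may read a relative, and 138 of the 177 members have another member of their family within 100 kb on GRCm38.p6. For Gstm1 these are 5 Gstm genes, for Gstt3 3 Gstt genes and for Gstp1 both Gstp2 and Gstp3, whereas Mgst2 and Mgst3 have none. How far a relative's transcript entered a reading was not tested.

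Of the 10 expressed Aldh genes, 1 was called higher and 1 lower. By comparison, 0 of 10 were called in BM 1st against parental and 1 of 9 was higher in BM 2nd against parental. Between the BM lines 1 of 9 was higher and 1 lower. All genes gave 2.04% higher and 1.79% lower for BM 1st against parental, and 1.83% higher and 1.53% lower for BM 2nd against parental. Between the BM lines they gave 3.01% higher and 1.78% lower. Aldh3b1, which oxidises fatty aldehydes, was 296 in parental cells, 231 in BM 1st and 852 in BM 2nd, which stood 2.87-fold above parental and 3.68-fold above BM 1st. Its other probes read 157, 120 and 368, and 136, 115 and 174, so the 3 probes ordered the lines alike but gave log2 BM 2nd/P from 0.35 to 1.52. Aldh18a1, which carries the family's symbol but makes pyrroline-5-carboxylate for proline synthesis, was 2542, 3282 and 1382. BM 2nd was 2.38-fold below BM 1st, and its log2 ratio to parental, -0.88, did not pass. The dim Aldh18a1 probe lay below background on every array. Aldh16a1, at 202, 137 and 228, passed only with background subtracted, at a log2 of -1.29 for BM 1st over parental and 1.60 for BM 2nd over BM 1st. Aldh2, the mitochondrial enzyme that clears acetaldehyde, was 8259, 10464 and 9250, and Aldh3a2, which oxidises fatty aldehydes in the endoplasmic reticulum, was 1544, 1494 and 1572. Aldh5a1, of 4-aminobutyrate breakdown, was 625, 381 and 624, and its log2 of -0.71 was the lowest ratio of BM 1st to parental among expressed members. Aldh1a1, Aldh1a2, Aldh1a3 and Aldh3a1, which make retinoic acid or protect cornea and airway, were above background on no array.

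**Figure D4:**
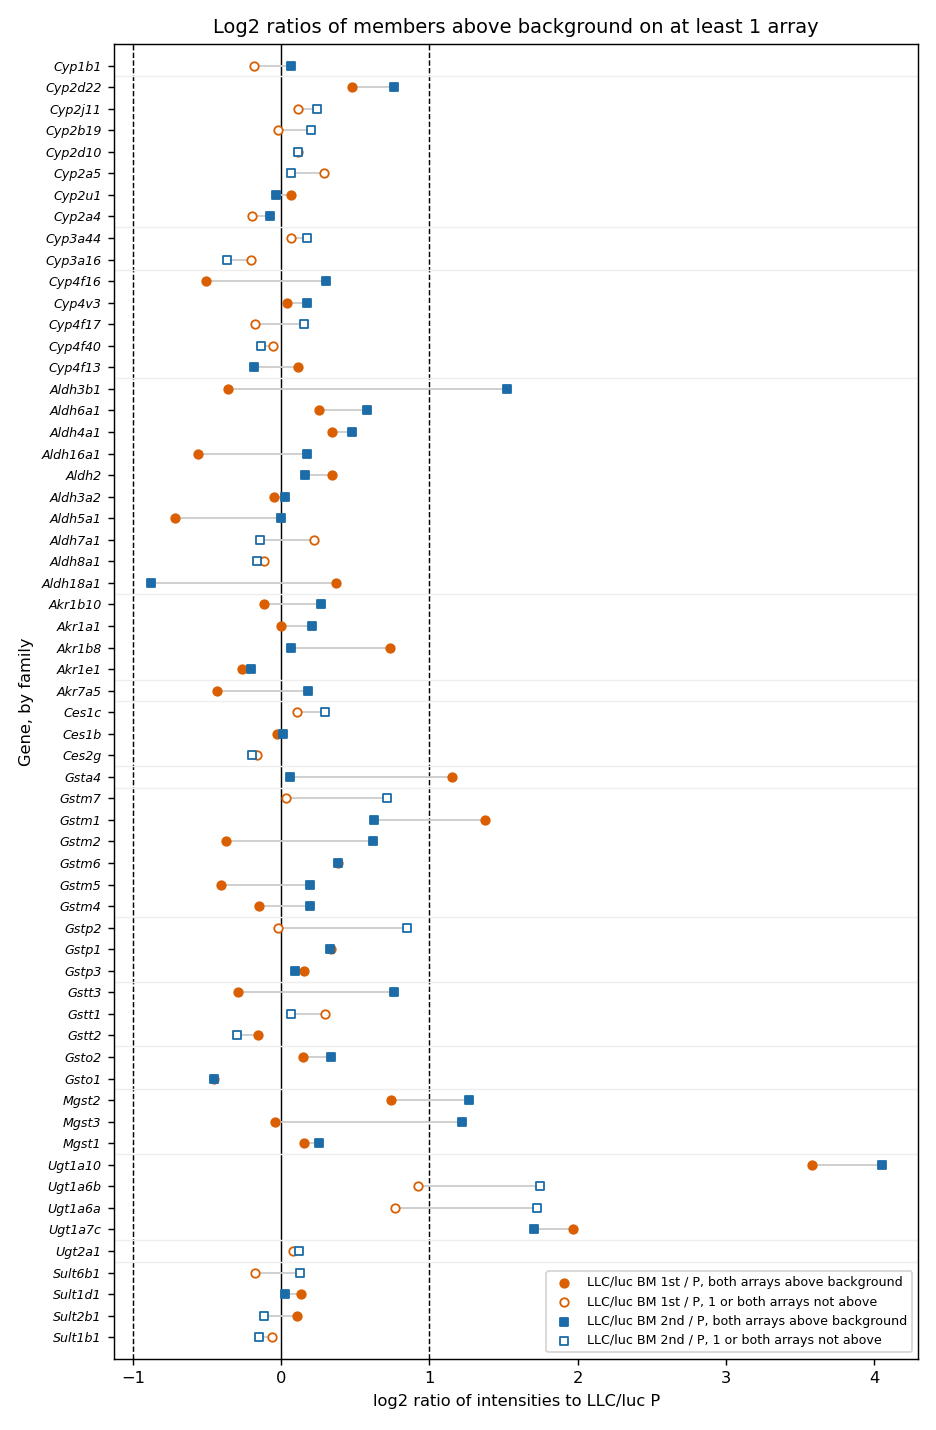
Log2 ratio of intensities to LLC/luc P (x axis) for the 60 members that any array put above background (y axis, ordered by family), with circles for BM 1st and squares for BM 2nd cells, filled where both arrays were above background. Ugt1a10, at 3.58 and 4.05, lies apart from the others, no member lies past -1, and the P450, Ces and Sult genes stay within the dashed lines.

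No P450 gene passed the threshold in the deposited intensities. Those above background on either array numbered 11 for BM 1st/P, 14 for BM 2nd/P and 13 for BM 2nd/BM 1st. All genes gave 1.83% to 3.01% higher and 1.53% to 1.79% lower, so 0 calls among so few lie near those shares. Cyp enzymes put oxygen on drugs, steroids and fatty acids. Over all 70, of which 55 were above background on no array, the log2 ratios of the 3 comparisons ran from -0.51 to 0.81. Above background on all 3 arrays were Cyp2d22, Cyp2u1, Cyp4f13, Cyp4f16 and Cyp4v3. Cyp2d22, of the family that holds the human drug enzyme CYP2D6, was 211, 293 and 358, with log2 ratios to parental of 0.48 and 0.76. Cyp4f13 and Cyp4f16, fatty acid hydroxylases, were 564, 612 and 496, and 214, 151 and 265. Cyp4v3 was 203, 209 and 229. Cyp1b1, which hydroxylates oestrogens and polycyclic hydrocarbons, read 115, 101 and 120, close to background, and of the Cyp3 genes Cyp3a44 read 98.5, 103 and 111. With background subtracted 2 of the 70 passed: Cyp2d22, at a log2 of 1.17 for BM 2nd over parental, and Cyp4f16, at -1.06 for BM 1st over parental and 1.56 for BM 2nd over BM 1st.

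The reductases, esterases and sulfotransferases also gave no call, with at most 4 genes of a family compared, too few to set against the shares of all genes. Akr1a1, the general aldehyde reductase, was 8458, 8464 and 9785. Akr7a5, which reduces aflatoxin dialdehyde, was 1927, 1429 and 2186. Akr1b8, of the aldose reductase group, was 787, 1309 and 823, with a log2 ratio of 0.74 in BM 1st cells, and its neighbour Akr1b10 was 1289, 1190 and 1553. Ces1b (127, 124 and 128), Sult1d1 (125, 137 and 127) and Ugt2a1 (99.9, 106 and 109), the brightest of their families, all lay near background. In all, 27 members were above background on all 3 arrays and never past 1, and 18 of all members above it on all 3 had log2 ratios within 0.5 in every comparison.

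Genes that supply, regulate and complete these reactions were read from lists. Of 14 genes for conjugation cofactors, 9 were above background, and 1 was called higher and 1 lower in each comparison. Over all genes 1.83% to 3.01% were called higher and 1.53% to 1.79% lower. Gclm, the modifier subunit of the enzyme that starts glutathione synthesis, was 383, 1449 and 503 in parental, BM 1st and BM 2nd, with log2 ratios of 1.92, 0.40 and -1.53 in BM 1st/P, BM 2nd/P and BM 2nd/BM 1st. Nnmt, which methylates nicotinamide, was 936, 170 and 357, with -2.47, -1.39 and 1.08. Slc35b3, a carrier of the sulfate donor, was 1165, 1381 and 2397, called only in BM 2nd against parental cells, at 1.04.

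Of 27 other redox enzymes 20 were above background. BM 1st had 3 of 18 higher than parental and BM 2nd 2 of 19, against 2.04% and 1.83% of all genes. Between the BM lines 2 of 19 were higher and 2 lower, against 3.01% and 1.78%. Nqo1, the quinone reductase, was 341, 4629 and 717, with log2 ratios of 3.77, 1.07 and -2.69. Xdh, which makes uric acid, was 270, 2114 and 1980. Cbr3, a carbonyl reductase, was 478, 1199 and 342. Adh7, an alcohol dehydrogenase that also acts on retinol, was 674, 385 and 936, and Nqo2, a relative of Nqo1, was 697, 399 and 839, so both were lowest in BM 1st cells, with log2 ratios of 1.28 and 1.07 between BM 2nd and BM 1st. By contrast Nqo1, Cbr3 and Gclm had their highest intensity in BM 1st cells, as Gstm1 and Gsta4 did, while Xdh was at like intensities in both BM lines, with a log2 of -0.09 between them.

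None of 20 genes for regulators, 15 of them above background, was called in any comparison. Over all genes 1.83% to 3.01% were called higher and 1.53% to 1.79% lower, so 0 calls among 14 or 15 compared lie near those shares. Nfe2l2, which encodes NRF2, was 634, 825 and 680, and Ahr, the aryl hydrocarbon receptor, was below background on every array at 83.9, 82.6 and 86.2. Of 16 transporters 7 were above background. Slco4a1, an uptake carrier of organic anions, was 394, 1885 and 832, higher than parental in both BM lines. Abcc4, an efflux pump, was 662, 1117 and 372, with a log2 of -1.59 between BM 2nd and BM 1st. None of 14 retinoid genes was called, but only 6 or 7 were compared, too few to set against the shares of all genes.

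Genes listed as markers of other cell types also differed between the same arrays. Against parental cells, BM 1st had 3 of 5 expressed leukocyte markers called higher and BM 2nd 2 of 4, against 2.04% and 1.83% of all genes. Every called leukocyte marker was below background in parental cells and was compared only through the BM arrays where it was bright. These counts are therefore a description only. Of the 7 leukocyte markers with a probe, only Csf1r was above background in parental cells, at 115, 128 and 116, and it was not called. The summed intensities of the 7 were 687, 2129 and 1077. Lyz2 was 79.5, 1078 and 365, while Ptprc, the gene of the pan-leukocyte protein CD45, read 102, 111 and 104. Of the fibroblast and marrow stroma markers 4 of 7 were higher in BM 1st and 5 of 8 in BM 2nd than in parental cells. Their summed intensities over 9 genes were 3136, 10533 and 18256. Lum was 198, 1742 and 6133, Dcn 1027, 6259 and 6174, and Dpt 142, 418 and 2213. The study lists these genes as raised on the same arrays, so they are no independent evidence. Col3a1 was 1107, 833 and 1946. Col1a2, at 110, 107 and 104, and Lepr, at 104, 107 and 109, lay near background, and Pdgfrb was below it on every array. Of the 5 carcinoma and epithelium markers, Krt8 was 1381, 997 and 2509 and Krt18 was 2025, 2280 and 1274. Cdh1, at 121, 116 and 125, and Cldn7, at 111, 97.3 and 117, lay near background, and Epcam was below it on every array. Of 4 osteoblast markers 3 and of 4 endothelial markers 2 were above background and 0 were called, and 0 of 3 adipocyte markers were above it. The part of other cells in the Ugt1a, Gst, Mgst and Aldh3b1 differences was not tested. In bulk RNA, a larger number of cells of a type and more RNA per cell cannot be told apart.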

How the data were processed

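Total RNA of 3 cell lines was hybridised to Illumina mouse bead arrays in 1 colour, 1 array per line. The authors deposited linear intensities, and their processing notes name GenomeStudio 2011.1. Its settings are not stated in the sources. Sorted by size, the arrays' intensities differed by at most 0.274, so the deposited intensities had been quantile normalized, and with a median of 101 and a lowest value of 60.2 they keep the background, which understates ratios of dim genes. Log2 ratios came from Python 3.11.15 with pandas 2.3.3 and numpy 2.4.6, and plots from matplotlib 3.10.9. Genes were assigned by the platform annotation, in which 10378 of 45281 probes had no gene and 18 had several. All 177 members matched the RefSeq table of GRCm38.p6. A bound is the bright intensity over the dim one or over background, whichever of these was higher. Background was also subtracted as an alternative (the median receptor probe, with a floor at its distance to the 95th percentile). Calling was run on simulated data with the spread of receptor probes (SD 0.117) and changes planted only in genes well above background. That spread is below the robust SD of expressed genes, so the run does not show how reliable the calls are.

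Named genes are members called in any comparison, the brightest expressed member of each family, up to 4 called genes of each pathway list and the marker genes. Others (Gstm5, Gstm6, Gstm7, Gstp2, Mgst1, Gstp3, Gstt1, Gstt2, Aldh1a1, Aldh1a2, Aldh1a3, Aldh3a1, Aldh3a2, Aldh5a1, Aldh16a1, Akr1b8, Akr1b10, the Cyp4 and Cyp2 genes other than Cyp4f13 and Cyp2d22, Ugt1a genes at background, Nqo2, Nfe2l2 and Ahr) were chosen after their values were seen. Members and lists were chosen with earlier results of these data known. Alternatives varied the background, filter, normalization, probe and threshold.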

Additional observations from a re-analysis of the deposited data

How the results depend on the processing

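The counts of members past the threshold were 4 (BM 1st/P), 7 (BM 2nd/P) and 5 (BM 2nd/BM 1st). They stayed within 1.5 times under the 99th percentile of background, no filter, both arrays above background, centring, updated symbols, the mean over expressed probes and, added after seeing the data, ratios taken as bounds. With background subtracted they were 10 (8 higher, 2 lower), 14 (13 and 1) and 13 (11 and 2), and with a threshold of a 1.5-fold ratio 9 (8 and 1), 14 (13 and 1) and 17 (13 and 4). The mean over all probes, which takes in dim ones, left 3 for BM 2nd/BM 1st, since Aldh18a1 (log2 -0.65) and Gstt3 (0.46) no longer passed. Gstm1 gave 0.99 for BM 1st/P with either mean. Added after seeing the data, leaving out the Ugt1a locus left 2 and 3 in the comparisons with parental cells, and leaving out members with a family neighbour within 100 kb, 138 of 177, left 0, 2 and 2. Of 360 log2 ratios of 24 named members recomputed under an alternative, 349 kept their side of the threshold, 4 fell below it, 7 passed it and 0 reversed. Background subtraction raised Ugt1a10 to 4.49 and 4.98 and Ugt1a7c to 4.25 and 3.91 against parental cells. Leaving out members by protein identity was not run. No paired analysis was possible because each line has 1 array. The number of arrays limits every value, and signal near background limits the 24 members above it on only some arrays.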
